A study of Homo sapiens with 8 samples.

Results

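Treatment of A549 cells with 60 nM helveticoside was compared with the vehicle control of the same array series. A549 cells are a long-established line of human lung carcinoma origin, and helveticoside is a cardiac glycoside found in the seeds of Descurainia sophia. The comparison used 2 of the 8 one-colour arrays of the study, the helveticoside vehicle array and the 60 nM array. The other arrays held 3.75 and 15 nM helveticoside, and a vehicle with 1.25, 5 and 20 µg/mL EEDS, the ethanol extract of the same seeds. All groups were the same cell line in the same medium, and the solvent of the vehicle is not named in the labels. Each array carried RNA pooled in equal parts from 3 cultures, so each condition had 1 array. No replicate error and no p-value could therefore be had for 60 nM against vehicle, and the values below describe these arrays. The labels and the methods of the study give different exposure times, so no time is given here.

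The genes described were those whose signal was called well above background by the scanner software on at least 1 of the 2 arrays. They numbered 13180 of the 19056 genes that the array probes matched. Of these, 11936 were well above background on both arrays, 631 at 60 nM but not with vehicle, and 613 with vehicle but not at 60 nM. The remaining 5876 genes were not well above background on either array and are not described. Because the call uses each spot's own surroundings, it has no fixed level. On the vehicle array the dimmest gene inside the limit was GSTM4 at a log2 intensity of 5.55 and the highest gene outside it was ADAMTS9 at 6.27. On the 60 nM array these were RAP2B at 5.47 and ZDHHC1 at 6.19.

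Cardiac glycosides bind the sodium pump, the Na,K-ATPase that exports sodium and imports potassium, and stop its cycle. Cells with a blocked pump take up sodium, lose potassium and can accumulate calcium, and prolonged block is known to reduce protein synthesis in human cells. Immediate early genes, the first genes switched on by calcium, kinase or stress signals, encode short-lived transcription factors such as EGR1, FOS and JUN. Heat shock proteins fold other proteins, and the amino acid response and a branch of the unfolded protein response act through the transcription factor ATF4.

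The epithelial and oxidoreductase genes that mark A549 cells were well above background on both arrays for 12 of the 12 markers matched. The keratin KRT18 had log2 levels of 18.35 with vehicle and 17.79 at 60 nM, and the lung cancer reductase AKR1B10 had 18.38 and 16.60. Of the 12 markers of immune, endothelial, fibroblast and red blood cells that were matched, 4 were well above background on both arrays. These were PTPRC (7.08 with vehicle, 7.27 at 60 nM), CD14 (11.29 and 9.01), CDH5 (7.33 and 7.51) and COL1A1 (7.89 and 8.60). Others, such as CD3E, PECAM1, VWF, COL1A2, COL3A1, DCN and HBB, were not well above background on either array. A549 cells are known to lack the CDKN2A, CDKN2B and MTAP genes. The probe of CDKN2B and the other CDKN2A and MTAP probes were at background, but 1 CDKN2A probe read 11.56 with vehicle and 9.31 at 60 nM, and 1 MTAP probe 11.82 and 10.70. The values of these 2 probes therefore go against the gene names, and no result is drawn from them.

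The promoters of 6 genes show the stretches from which the leading genes are transcribed. They run from 250 bases before to 50 bases after the RefSeq start in GRCh38.p14, 5′ to 3′ on the gene's strand. The first 4 belong to genes that were higher at 60 nM, namely EGR1, the AP-1 subunit gene FOSB, the phosphatase regulator PPP1R15A and the growth factor gene AREG. The last 2 belong to heat shock genes that were lower, HSPA8 and HSPA1A. Capitals mark the motifs searched on both strands: the serum response CArG box in EGR1, the cAMP response element TGACGTCA in AREG and PPP1R15A, the TATA box TATAAA in FOSB, PPP1R15A, AREG and HSPA1A, and the heat shock element GAANNTTC in HSPA8 and HSPA1A. No 2 of the marked matches overlap.
EGR1, chr5:138465229-138465528, plus strand: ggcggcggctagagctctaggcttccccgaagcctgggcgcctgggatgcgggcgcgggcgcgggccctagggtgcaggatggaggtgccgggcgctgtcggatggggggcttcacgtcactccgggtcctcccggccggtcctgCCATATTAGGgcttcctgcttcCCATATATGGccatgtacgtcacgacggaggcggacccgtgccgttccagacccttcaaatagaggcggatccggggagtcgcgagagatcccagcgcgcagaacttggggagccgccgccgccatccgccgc
FOSB, chr19:45467746-45468045, plus strand: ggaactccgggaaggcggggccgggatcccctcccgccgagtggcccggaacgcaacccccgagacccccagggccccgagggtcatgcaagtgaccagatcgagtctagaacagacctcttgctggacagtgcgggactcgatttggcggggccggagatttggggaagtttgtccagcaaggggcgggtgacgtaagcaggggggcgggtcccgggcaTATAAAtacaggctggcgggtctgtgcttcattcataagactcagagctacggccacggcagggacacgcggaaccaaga
PPP1R15A, chr19:48872171-48872470, plus strand: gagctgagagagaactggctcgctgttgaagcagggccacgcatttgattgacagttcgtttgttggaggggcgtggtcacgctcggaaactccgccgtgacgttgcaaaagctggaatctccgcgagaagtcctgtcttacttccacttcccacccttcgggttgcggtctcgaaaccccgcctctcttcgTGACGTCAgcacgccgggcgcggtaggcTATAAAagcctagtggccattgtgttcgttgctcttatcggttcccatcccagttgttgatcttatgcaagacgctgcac
AREG, chr4:74444886-74445185, plus strand: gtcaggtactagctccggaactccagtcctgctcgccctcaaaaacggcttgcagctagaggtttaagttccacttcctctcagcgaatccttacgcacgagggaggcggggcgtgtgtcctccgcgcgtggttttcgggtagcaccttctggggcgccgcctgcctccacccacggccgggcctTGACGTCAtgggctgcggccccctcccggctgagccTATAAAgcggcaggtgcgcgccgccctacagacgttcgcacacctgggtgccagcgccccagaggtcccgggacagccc
HSPA8, chr11:123062087-123062386, minus strand: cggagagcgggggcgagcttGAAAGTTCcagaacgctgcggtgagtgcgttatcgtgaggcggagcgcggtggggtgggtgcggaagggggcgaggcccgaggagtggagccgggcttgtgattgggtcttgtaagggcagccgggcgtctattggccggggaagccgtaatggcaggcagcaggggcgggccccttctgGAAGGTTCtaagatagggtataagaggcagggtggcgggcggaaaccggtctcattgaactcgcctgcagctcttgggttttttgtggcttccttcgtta
HSPA1A, chr6:31815293-31815592, plus strand: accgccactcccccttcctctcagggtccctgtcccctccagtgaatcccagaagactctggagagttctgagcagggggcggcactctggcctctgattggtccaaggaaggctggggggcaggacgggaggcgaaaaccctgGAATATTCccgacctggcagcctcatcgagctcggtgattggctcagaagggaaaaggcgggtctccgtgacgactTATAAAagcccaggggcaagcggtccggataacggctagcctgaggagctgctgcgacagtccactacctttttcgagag

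EGR1 holds 2 CArG boxes and HSPA8 holds 2 heat shock elements, and HSPA1A holds 1. These matches are letters in a window and say nothing on whether a factor was bound. Exactly 1 start was listed for 7597 of the 13180 described genes, and shares of promoters are over these. The element TGACGTCA was in the promoters of 11 of 191 genes more than 4-fold higher (5.76%) and 6 of 235 genes more than 4-fold lower (2.55%). Among all 7597 promoters the share was 3.48%, and among all 22114 promoters with 1 start in the table it was 2.01%. The AP-1 motif TGANTCA was in 9.95% of promoters of genes more than 4-fold higher, 2.98% of those more than 4-fold lower, 4.77% of those described and 8.05% of the table. A TATAAA was in 26 of the 191 (13.6%) and 14 of the 235 (5.96%), against 6.94% of those described and 12.7% of the table. The heat shock element differed little between these classes, with 4.19% and 5.11% against 4.53% of those described and 7.04% of the table. CArG boxes were rare, in 3 of the 191, 1 of the 235, 0.921% of those described and 1.26% of the table. The median GC content was 67.3% for genes more than 4-fold higher, 65.7% for genes more than 4-fold lower and 65.0% for all described. No test was made of these shares.

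At 60 nM, 1518 genes were more than 2-fold higher than with vehicle (11.5% of those described) and 1866 were more than 2-fold lower (14.2%). Each list count below is to be read beside these shares. More than 4-fold, 327 genes were higher (2.48%) and 426 were lower (3.23%). More than 16-fold, 15 genes were higher and 23 were lower. The median log2 ratio over all described genes was 0.03 with an SD across genes of 1.01, and 9796 genes stayed within 2-fold. Where a gene was well above background on only 1 of the arrays, its ratio is a bound, taken against the lowest level that was well above background on the dimmer array. Such a gene can count in only 1 direction, in the list counts too. Leaving such genes out, 1316 genes were more than 2-fold higher and 1545 lower. Values were normalized so that all arrays share a distribution, so a change in total RNA per cell is not visible here, and fewer cells of a kind and less RNA per cell cannot be told apart.

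**Figure D1:**
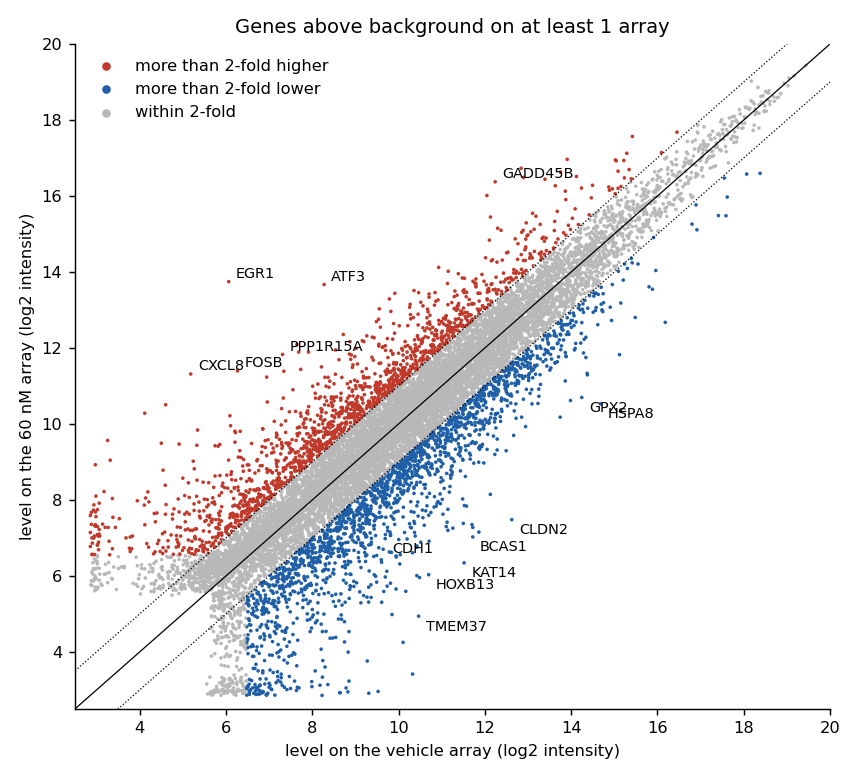
Levels of the 13180 genes described on the vehicle array (horizontal) and the 60 nM array (vertical), both as log2 intensity. Points are genes, coloured by the 2-fold limits of the ratio, the solid line marks equal levels and the dotted lines 2-fold. The grey points outside the dotted lines at the lower left are genes whose ratio is a bound within 2-fold. EGR1 at 6.06 and 13.74 lies farthest above the line, and KAT14 and CLDN2 lie far below it.

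Gauges of error came from within the arrays and from the other arrays. Repeated spots of a probe had a median SD of 0.06 on the log2 scale on both arrays. For 2590 genes with several probes well above background on both arrays, the ratios of the probes of a gene spread over a median of 0.31, and over 1.15 at the 90th percentile. Of the 847 such genes with a probe past 2-fold, 726 had all probes on the same side of 0, and 8 had probes past 2-fold in opposite directions. The vehicle arrays of the helveticoside and EEDS series, neither of which had either agent, differed more than 2-fold for 658 of 12391 genes (5.31%). By the same measure, 60 nM and vehicle differed for 2861 of 11936 genes (24%). The SD across genes was 0.50 between the vehicle arrays and 0.96 between 60 nM and vehicle. A 2-fold difference of a single gene is therefore within what untreated arrays showed for some genes, whereas 47 of the 12391 genes (0.379%) differed more than 4-fold between the vehicle arrays. The vehicle arrays came from different series, with 57.3% of probes well above background for helveticoside and 64.9% for EEDS. Their differences thus also hold any between the series, whereas 60 nM and its vehicle were of the same series.

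**Figure D2:**
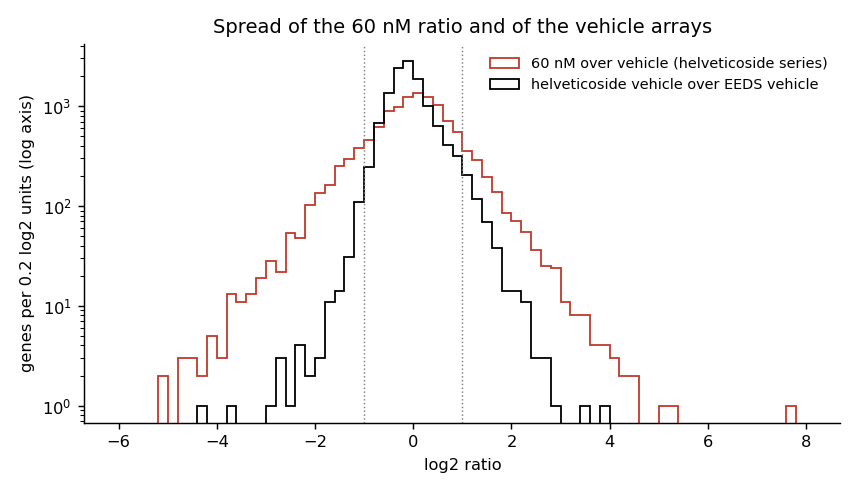
Number of genes per 0.2 log2 units (log axis) for the log2 ratio of 60 nM over vehicle and of the helveticoside vehicle over the EEDS vehicle, over genes well above background on both arrays of each pair. The dotted lines mark 2-fold. The 60 nM ratio has an SD of 0.96 and the ratio of the vehicle arrays 0.50, with fewer genes past the lines.

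Arrays that took no part in the ratio of 60 nM over vehicle gave a further look. The ratio of 15 over 3.75 nM shares neither array with it, and neither does the ratio of 20 µg/mL EEDS over the EEDS vehicle. Of the genes more than 4-fold higher at 60 nM, 262 were well above background on these 4 arrays. Their median log2 ratio was 1.01 for 15 over 3.75 nM, with 254 above 0, and 2.62 for EEDS, with 260 above 0. The 383 genes more than 4-fold lower had medians of -1.05, with 376 below 0, and -2.62, with 383 below 0. Over all 11730 genes well above background on these arrays, 50.3% and 49.2% were above 0. The 8784 genes within 2-fold at 60 nM had a median of 0.02 in both ratios.

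**Figure D3:**
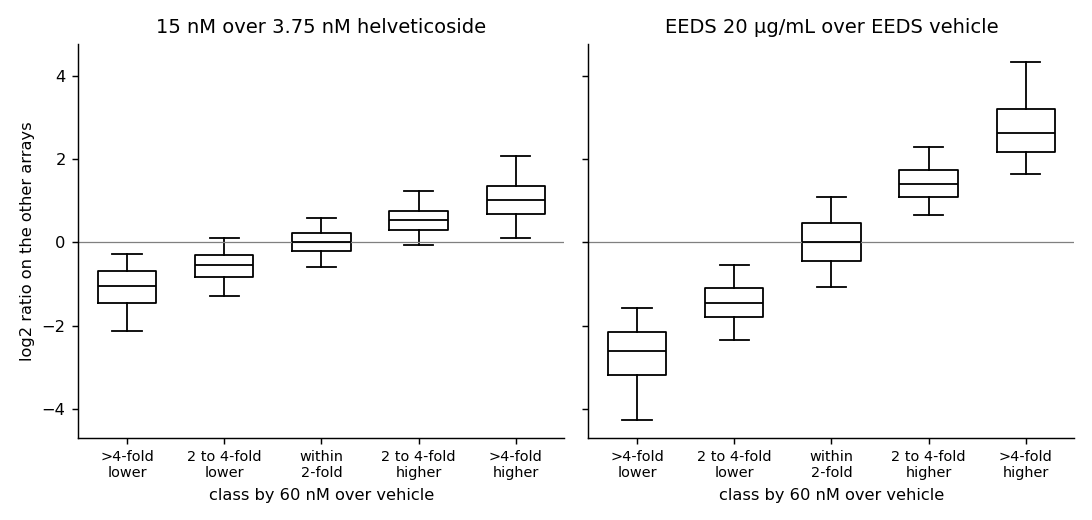
Log2 ratio of 15 over 3.75 nM helveticoside (left) and of 20 µg/mL EEDS over the EEDS vehicle (right) for genes grouped by their ratio of 60 nM over vehicle. Boxes are quartiles over genes, lines in the boxes are medians and whiskers run from the 5 to the 95 percentile. The medians step from -1.05 to 1.01 on the left and from -2.62 to 2.62 on the right.

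Where both arrays were above background, the 3 largest ratios belonged to EGR1, ATF3 and FOSB, transcription factors of the immediate early class. EGR1 had log2 levels of 6.06 with vehicle, 8.10 at 3.75 nM, 9.18 at 15 nM and 13.74 at 60 nM, a log2 ratio of 7.68 at 60 nM or 206-fold. Its log2 ratio lay between 6.28 and 7.68 over the alternatives, so 206-fold is at the upper end. Its vehicle level was near background, below the 6.27 of ADAMTS9, which was outside the limit on that array. FOSB went from 6.26 with vehicle to 6.41, 8.01 and 11.40 at the rising doses, which was 35.1-fold at 60 nM, with a log2 ratio between 3.51 and 6.03 over the alternatives. ATF3, a stress-induced member of the ATF and CREB family, read 8.27, 9.13, 11.64 and 13.67 in the same order, or 42.1-fold by its brightest probe. Its other probes disagreed in size, since of the 3 well above background on both arrays the lowest gave a log2 ratio of 0.21, and another probe, above background at 60 nM but not with vehicle, read 2.89 and 8.93. The small MAF factor gene MAFF went from 7.64 to 12.09. By their brightest probes these 4 genes were highest at 60 nM of the 4 helveticoside arrays.

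Of 37 immediate early genes described, 29 were more than 2-fold higher, against 11.5% of all genes, and 27 of the 34 that were well above background on both arrays. IER5L was more than 2-fold lower, though within 2-fold under 1 alternative. The median log2 ratio of the list was 1.84. JUN read 9.01 with vehicle, 9.85 and 10.78 at 3.75 and 15 nM and 11.99 at 60 nM. FOS, its AP-1 partner, read 8.38, 10.59, 9.51 and 10.96, so its 15 nM level was lower than its 3.75 nM level. FOSL1, JUNB, KLF10 and MAFK had log2 ratios of 3.98, 2.54, 2.29 and 2.31. The secreted matrix proteins CCN1 and CCN2, targets of YAP and SRF, had 3.97 and 3.14, and SRF itself had 2.29. KLF4 was at least 12.1-fold higher, being not well above background with vehicle. NPAS4, EGR3, EGR4 and NR4A3 were not well above background on either array. The median of the list lay between 1.66 and 2.04 under all 11 processing alternatives.

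Some negative feedback genes of the MAP kinase pathway were higher. DUSP1, a phosphatase that inactivates MAP kinases, read 13.63 with vehicle, 14.39, 15.22 and 16.27 with rising dose. DUSP6 and DUSP5 had log2 ratios of 1.84 and 1.85, and SPRY4, an inhibitor of receptor signalling, had 2.11. In all, 7 of 16 genes of this list were more than 2-fold higher and 0 lower, and the other 9 were within 2-fold. Ligands of the EGF receptor were higher: EREG read 9.78 with vehicle and 13.29 at 60 nM, AREG 12.10 and 14.84, and HBEGF was at least 5.52-fold higher. EGFR itself read 9.43, 10.03, 10.80 and 12.27. Of the MAP kinase and EGF receptor genes 9 of 27 were more than 2-fold higher, and MAP2K6, a kinase of the p38 branch, was lower with 9.91 and 7.35. EREG and AREG are neighbours in the genome.

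**Figure D4:**
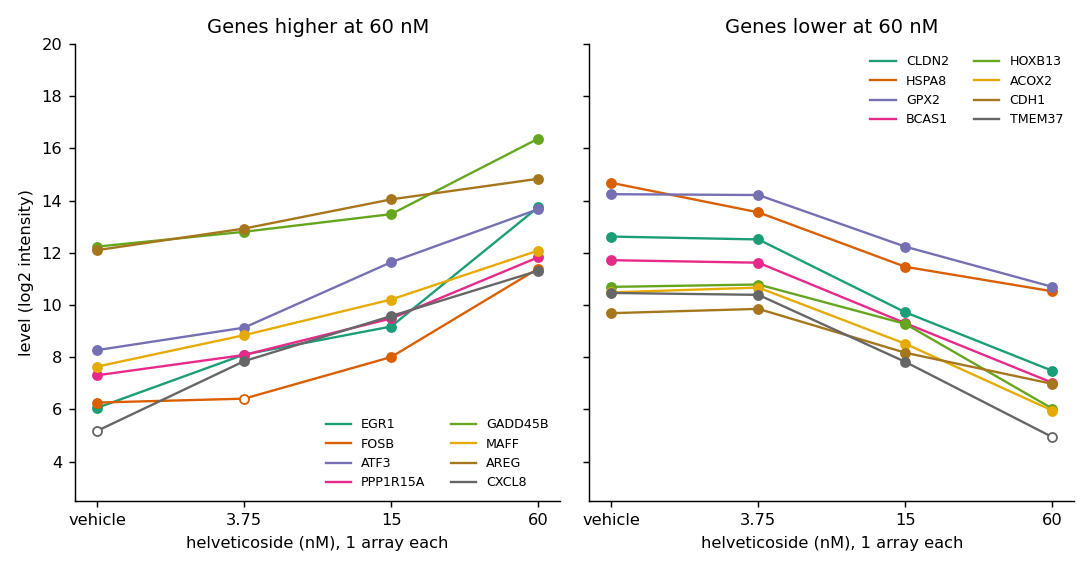
Log2 intensity of 8 genes that were higher (left) and 8 that were lower (right) at 60 nM, on the vehicle, 3.75, 15 and 60 nM arrays, 1 array per point. Filled points are well above background and open points are not. EGR1 goes from 6.06 to 13.74 and CLDN2 from 12.62 to 7.48. In both panels the 60 nM point is the extreme of every gene.

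Stress and translation-control genes formed the next group. PPP1R15A, which directs a phosphatase to the initiation factor eIF2, read 7.31 with vehicle, 8.09 and 9.48 at 3.75 and 15 nM and 11.83 at 60 nM, or 22.9-fold. The asparagine synthetase gene ASNS read 13.39, 13.58, 16.68 and 16.44, and DDIT3, the factor CHOP, 6.85, 6.16, 9.42 and 9.87. Both were near their 60 nM level at 15 nM. CHAC1, which degrades glutathione, was higher at 15 nM (12.26) than at 60 nM (10.71) and read 8.44 with vehicle. PSAT1 and PHGDH, of serine synthesis, showed the same order with 15.03 and 13.59 at 15 nM and 13.96 and 12.66 at 60 nM, and each ratio at 60 nM was within 2-fold under 1 alternative. Of 26 ATF4 response genes, 15 were more than 2-fold higher and 3 lower, the latter being ATF5, DDIT4 and the cystine transporter SLC7A11, each within 2-fold under at least 1 alternative. ATF4 itself had a log2 ratio of 0.49. The tRNA synthetase genes YARS1, GARS1 and MARS1 had 1.85, 1.57 and 1.21, the last within 2-fold under 2 alternatives, whereas QARS1 had -2.42. Of 19 synthetase genes 3 were more than 2-fold higher (15.8%) and 2 lower (10.5%), near the 11.5% and 14.2% of all genes.

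Among heat shock genes the lower ones outnumbered the higher ones. Of 31 heat shock genes 9 were more than 2-fold lower, against 14.2% of all genes, and 4 more than 2-fold higher, with a median log2 ratio of -0.43. HSPA8, the constitutive HSP70, read 14.68 with vehicle, 13.55 at 3.75 nM, 11.46 at 15 nM and 10.53 at 60 nM, or 17.8-fold lower. The inducible copies HSPA1A and HSPA1B read 14.38 and 13.23 with vehicle and 11.29 and 10.54 at 60 nM, though their sequences are nearly identical and the probes may not tell them apart. HSPA2 went from 12.49 to 9.29. The HSP90 genes HSP90AA1 and HSP90AB1 had log2 ratios of -1.54 and -1.57, and their cochaperone AHSA1 had -1.29. HSPA13, an atypical HSP70 of the endoplasmic reticulum membrane, was higher with 10.34 and 11.88. Among 21 ER chaperone genes the median was -0.04 with 1 gene past 2-fold each way, HERPUD1 at 1.03 and HSPA5, the chaperone BiP, at -1.09, and each was within 2-fold under 1 alternative.

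Cytokine and NF-kappa B genes were mostly higher or within 2-fold. CXCL8, the neutrophil chemokine interleukin 8, was not well above background with vehicle (5.18), read 7.85 and 9.58 at 3.75 and 15 nM and 11.31 at 60 nM, and was at least 54.2-fold higher. Such bounds depend on the background correction, and the log2 bound of CXCL8 lay between 4.02 and 5.76 over the alternatives. IL11, of the interleukin 6 family, read 12.89, 13.39, 14.74 and 16.49. CXCL1 and CXCL2 had log2 ratios of 2.56 and 2.10, LIF had 2.27 and the cytokine inhibitor SOCS3 2.97, and LTB was at least 10.3-fold higher. In all 14 of 22 cytokine genes described were more than 2-fold higher and 0 lower. Of these 22, 6 were above background only at 60 nM and could not count as lower, and among the 16 above background on both arrays 11 were higher and 0 lower. A further 12 of the 34 on the array, IL6, IL1A and IL1B among them, were not well above background on either array. Of 19 NF-kappa B genes 9 were more than 2-fold higher and 0 lower. BIRC3, an inhibitor of apoptosis and known NF-kappa B target, read 9.55, 10.77, 12.02 and 13.03, and RELB 12.37, 13.34, 14.38 and 15.10. TNFAIP3 was at least 9.61-fold higher, whereas NFKBIA, another known target, read 13.56 and 13.78. CD274, the immune checkpoint ligand PD-L1, was at least 30.9-fold higher, with 4.60 on the vehicle array and 7.04, 8.57 and 10.50 with rising dose, and its log2 bound lay between 3.55 and 4.95.

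Interferon-related genes were mixed. The antiviral synthetase OAS1 read 8.76 with vehicle and was at least 9.75-fold lower. MX2 was at least 3.84-fold higher, which was within 2-fold under 1 or more alternatives. HLA-DMB, which loads peptides on class II molecules, read 11.70, 11.80, 10.89 and 7.35. Of 19 genes in the list 3 were more than 2-fold higher (15.8%) and 5 lower (26.3%), against 11.5% and 14.2% of all genes. IFIT1, IFIT2 and OAS1 were above background only with vehicle and could not count as higher. MX2 and OAS2 were above background only at 60 nM and could not count as lower.

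Genes of the DNA damage response were mostly higher, and genes of cell death went both ways. GADD45B read 12.24 with vehicle and 16.37 at 60 nM (17.6-fold), and its relative GADD45A 9.91 and 13.44. CDKN1A, the cell cycle inhibitor p21, read 7.18, 7.07, 8.87 and 9.70. The ubiquitin ligase gene MDM2 was within 2-fold, with a log2 ratio of 0.63. Of the 27 genes of this list 17 were more than 2-fold higher and 1 lower, with a median of 1.44. The median was 0.83 and the count of higher genes 12 with the authors' processed values, and 0.93 and 13 against the EEDS vehicle. The proapoptotic BH3-only genes BBC3 and PMAIP1 had 2.87 and 1.74, and BCL2L11, which encodes BIM, had -1.86. The antiapoptotic MCL1 had 1.87. The TRAIL receptor genes TNFRSF10A, TNFRSF10B and TNFRSF10D had 2.91, 2.21 and 2.48, and FAS 2.04. TRADD, the adaptor of the TNF receptor, and the receptor gene TNFRSF1A were lower with -2.18 and -1.41, and caspase 6 was lower with -1.78. Of 15 BCL2 family genes 8 were more than 2-fold higher and 2 lower, with 4 higher under the authors' processed values, and of 26 death receptor and caspase genes 9 and 4.

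Proliferation genes separated into groups. Of 41 mitosis genes 1 was more than 2-fold higher and 2 lower, with a median log2 ratio of 0.24, and MKI67 read 10.93 and 11.03. Of 45 DNA replication genes 11 were more than 2-fold lower and 1 higher. PRIM1, the small primase subunit, read 11.21 with vehicle, 10.10 and 9.38 at 3.75 and 15 nM and 8.79 at 60 nM, and the ligase gene LIG1 12.60, 12.49, 11.25 and 10.55. MCM2 and PCNA were within 2-fold with -0.29 and -0.28. The largest share of lower genes among these lists was in DNA repair, where 16 of 41 were more than 2-fold lower (39.0%) and 1 was higher, the thymine glycosylase gene TDG at 1.54. NTHL1, a base excision glycosylase, read 12.12, 11.93, 10.66 and 8.14, and FANCF, of the Fanconi anaemia core complex, 11.12, 10.28, 9.68 and 7.41. MUTYH, XRCC1 and APEX1, also of base excision repair, had log2 ratios of -2.55, -1.56 and -1.57. Among 22 G1 genes 7 were more than 2-fold higher and 5 lower, with CDKN2A among the lower ones by the doubtful probe named above. CDK6 was higher with 1.62 and RBL2, a relative of the retinoblastoma gene, lower with -1.74.

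Metabolic and antioxidant genes were mostly lower or within 2-fold. Of 30 NRF2 target and reductase genes 14 were more than 2-fold lower (46.7%) and 0 higher, with a median log2 ratio of -0.85. The glutathione peroxidase GPX2 read 14.25 with vehicle, 14.21 and 12.23 at 3.75 and 15 nM and 10.70 at 60 nM. AKR1B10 and AKR1B1 had -1.78 and -1.93, and the closely related AKR1B15 and AKR1C genes may share probe signal with them. The carbonyl reductase gene CBR3 was at least 13.9-fold lower, GCLC, of glutathione synthesis, had -1.55, and NQO1 stayed within 2-fold at -0.68. The NRF2 gene itself, NFE2L2, was not well above background on either array by its probe. Of 20 pentose phosphate and purine genes 6 were more than 2-fold lower, PGD with 14.94 and 12.72 among them, and 0 higher. Of 26 cholesterol genes 7 were more than 2-fold lower, the sterol reductase DHCR7 with 13.37 and 11.82 among them, while HMGCS1 was higher with 1.53. ACADSB, which oxidizes branched acyl chains, had -3.45, and BCKDHB was at least 7.85-fold lower. Of the 19 glycolysis genes 3 were more than 2-fold higher (15.8%, against 11.5% of all genes) and 1 lower. PFKFB4 at 2.59 and the glucose transporter SLC2A1 at 1.39 were among the higher ones, and LDHA had 0.17. Fatty acid oxidation genes were within 2-fold for 21 of 23 members, and 4 of 19 branched-chain amino acid genes were more than 2-fold lower and 0 higher. TXNIP, a glucose-regulated inhibitor of thioredoxin, was at least 11.2-fold higher, but 2 of the 3 higher genes among the 6 of its list, TXNIP and ARRDC4, were above background only at 60 nM, and over the 4 genes above background on both arrays the median log2 ratio was 0.35. Of 21 hypoxia and metallothionein genes 4 were more than 2-fold higher and 0 lower, the peptide hormone gene ADM with 13.75 and 16.63 among them.

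The sodium pump genes were mostly within 2-fold. ATP1B1, the beta subunit that carries the pump to the membrane, read 15.34 with vehicle, 15.82 at 3.75 nM, 16.18 at 15 nM and 16.69 at 60 nM, or 2.55-fold, and ATP1B3 was 0.73 higher. FXYD3, a small regulator of the pump, was at least 5.36-fold higher. Of 12 pump genes 2 were more than 2-fold higher and 0 lower. Among other transporters, the calcium entry channel ORAI1 had a log2 ratio of 1.67, and the mitochondrial sodium and calcium exchanger SLC8B1 had -2.45. ATP2A2, the calcium pump SERCA2, read 12.52, 12.14, 11.56 and 10.48, though its ratio lay between -2.10 and -0.75 under the alternatives. Of the 26 ion transport genes 3 were more than 2-fold higher and 5 lower, which are shares near those of all genes.

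Epithelial, junction and developmental genes lost and gained members. CLDN2, a claudin that forms paracellular cation pores, read 12.62 with vehicle, 12.51 at 3.75 nM, 9.72 at 15 nM and 7.48 at 60 nM, or 35.3-fold lower, while the barrier claudin CLDN1 read 10.56, 10.81, 12.14 and 13.11. CDH1, E-cadherin, read 9.69, 9.85, 8.17 and 6.98, and KRT19 had a log2 ratio of -1.72. ZEB2 and ZEB1, repressors of CDH1, had 2.10 and 1.24, and VIM had -0.01. Other members of the list went the other way. Over the alternatives the mesenchymal matrix gene FN1 lay between -1.57 and -1.11, and the epithelial keratin gene KRT80 between 1.58 and 2.19. ESRP1, also epithelial and above background only at 60 nM, lay between 0.60 and 2.13. BAAT, a liver enzyme that conjugates bile acids, was at least 16.6-fold lower, and 4 of 16 lung and liver genes were more than 2-fold lower and 1 higher. BAAT and MUC5B were above background only with vehicle and could not count as higher. Over the 14 genes above background on both arrays the median log2 ratio was -0.26, against -0.42 over the 16. Of 18 tight junction genes 4 were more than 2-fold higher and 4 lower (22.2% each). Of 22 epithelial and mesenchymal genes 4 were higher (18.2%) and 5 lower (22.7%), with a median log2 ratio of 0.01.

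Among secreted regulators, the BMP antagonists NOG and GREM1 were at least 16.1-fold higher and 3.64 on the log2 scale, and FST, which binds activin, had 2.60. Of 28 BMP, ID and TGF-beta genes 12 were more than 2-fold higher and 1, BMP4, was lower at -1.31, which was within 2-fold under 3 alternatives. In contrast 9 of 27 Notch and Wnt genes were more than 2-fold lower and 4 higher. AXIN2, DACT2, HES2 and RNF43 were above background only with vehicle and could not count as higher, and DACT1 only at 60 nM. Over the 22 genes above background on both arrays the median log2 ratio was 0.04, against -0.09 over the 27. LFNG, a glycosyltransferase of Notch, read 9.94 and 6.52, NOTCH3 13.54 and 11.71, and the Wnt target RNF43 was at least 6.92-fold lower. Circadian clock genes were higher in 7 of 14 cases, with PER1 at 7.55, 9.81, 9.30 and 10.90 over the 4 arrays, NR1D1 at 6.85 and 9.87 and CRY1 at 7.61 and 10.33. DBP, another output gene of the clock, was lower at -1.65 but within 2-fold under 1 alternative.

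The gene with the lowest ratio among those well above background on both arrays belonged to the chromatin class. KAT14, a histone acetyltransferase of the ATAC complex, read 11.52 with vehicle, 10.09 and 9.10 at 3.75 and 15 nM and 6.34 at 60 nM, or 36.1-fold lower by its 1 probe above background on both arrays. KAT2A, which can serve in the same complex, read 12.25, 12.08, 10.98 and 9.89. Of 26 genes of this class 4 were more than 2-fold lower (15.4%) and 2 higher (7.69%), against 14.2% and 11.5% of all genes. The SR protein and CLK list also holds RNA-binding proteins of the hnRNP group, and 7 of its 26 genes were more than 2-fold lower. SRSF6 at -1.64 and the hnRNP gene HNRNPA1 at -1.92 were among them. SRSF12, also lower, was above background only with vehicle and was within 2-fold under at least 1 alternative. The kinases CLK4 and CLK1, which phosphorylate SR proteins, were higher at 2.05 and 1.20.

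**Figure D5:**
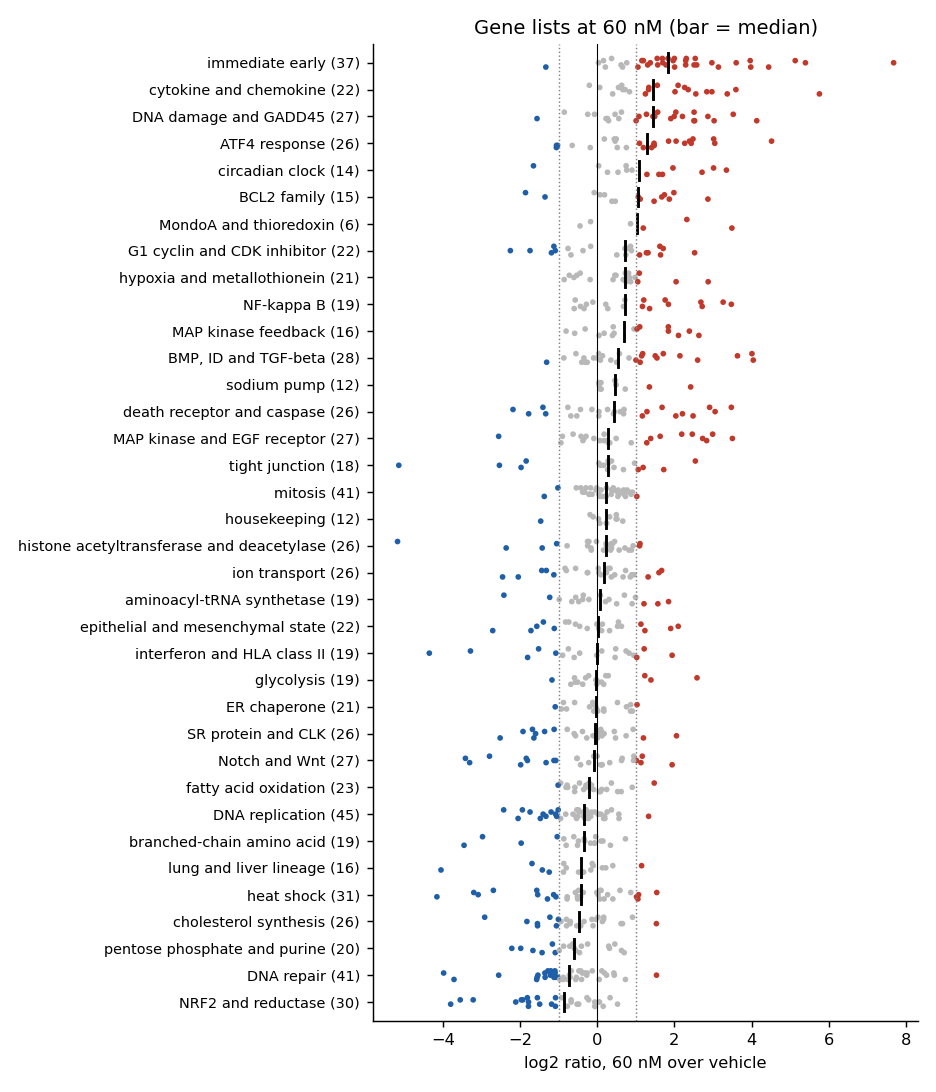
Log2 ratio of 60 nM over vehicle for each described member of the 36 gene lists written by symbol, with the number of members in brackets. Points are genes, red above 2-fold and blue below, and black bars are medians. The immediate early list has the highest median, 1.84, and the NRF2 and reductase list the lowest, -0.85. Values of genes above background on only 1 array are bounds.

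The ribosomal, complex I and proteasome families had smaller shares of genes past 2-fold than all genes, and the other families here varied. Of 78 cytosolic ribosomal protein genes 0 were past 2-fold either way and the median was 0.10. Of 76 mitochondrial ribosomal protein genes 1 was more than 2-fold higher and 7 lower, MRPS34 at -1.67 among them. Of 36 complex I genes 1 was more than 2-fold lower, NDUFB10 at -1.83, and of 47 proteasome genes 1 was higher and 3 lower. Among 308 zinc finger genes named ZNF, 38 were more than 2-fold higher and 42 lower, shares near those of all genes. ZNF341 read 10.70 and 13.34 and ZNF658 11.03 and 7.62. Of 24 HOX genes 9 were more than 2-fold lower (37.5%) and 2 higher, and HOXB13 read 10.69, 10.79, 9.28 and 6.03 over the 4 arrays. Of 61 replication-dependent histone genes 5 were more than 2-fold higher and 1 lower, the latter H2AC16, whose ratio was 0.19 against the EEDS vehicle in place of its own. Of 21 keratin genes 2 were more than 2-fold higher (9.52%) and 4 lower (19.0%). Of 62 olfactory receptor genes 8 were higher (12.9%) and 2 lower (3.23%), against 11.5% and 14.2% of all genes. Of 12 housekeeping genes 11 were within 2-fold, ACTB with 0.07 among them. Of 66 LINC genes 14 were more than 2-fold lower (21.2%) and 6 higher (9.09%). Only 45 of the olfactory receptor genes and 52 of the LINC genes were above background on both arrays and could count either way. Over these, the median log2 ratio of the helveticoside vehicle over the EEDS vehicle was 0.67 and 0.33, against -0.10 for all genes.

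Other genes with large differences had no place in the lists. LY6K, a membrane-anchored surface protein, read 6.94 with vehicle, 7.90 and 10.24 at 3.75 and 15 nM and 11.23 at 60 nM. LAT2, a signalling adaptor of immune cells, read 6.09, 5.40, 9.24 and 10.21, and C3orf52 7.68, 8.46, 9.41 and 11.89. C11orf96 was at least 26.5-fold higher, with a log2 bound between 3.04 and 5.30 over the alternatives, and REM2, a small GTPase that inhibits calcium channels, at least 19.5-fold, with 2.38 to 4.28. All 5 had their highest helveticoside level at 60 nM.

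Of the lower genes outside the lists, GPRIN2 read 11.86, 9.83, 8.43 and 7.15, and BCAS1 read 11.72, 11.62, 9.30 and 7.02. ACOX2, a peroxisomal oxidase of branched fatty acids and bile acid precursors, read 10.48, 10.67, 8.51 and 5.96. The ferritin receptor SCARA5 read 11.72, 11.81, 10.38 and 7.27, and the neuronal protein DPYSL5 10.42, 9.89, 7.69 and 6.01. RIMBP3 read 9.94 and 5.65. The largest bounds of lower genes were those of TMEM37, at least 31.8-fold lower with a log2 bound between -5.13 and -3.47 over the alternatives, and SLC33A2, at least 28.8-fold with -4.85 to -3.16. The transcription factor SALL2 was at least 23.8-fold lower, the nucleotide hydrolase NUDT18 at least 20.7-fold and the sialyltransferase ST6GAL1 at least 17.5-fold. Their log2 bounds over the alternatives were -4.84 to -2.93, -4.77 to -2.70 and -4.51 to -2.64 in this order. ACOX2 and SCARA5 were slightly higher at 3.75 nM than with vehicle and lower from 15 nM on, whereas GPRIN2 and RIMBP3 were already lower at 3.75 nM, RIMBP3 with 8.18.

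The share of genes past 2-fold differed with signal. In the dimmest 20% of genes by mean level 18.1% were more than 2-fold lower and 11.8% higher, and in the brightest 20% 7.28% and 8.04%. The number of genes past 4-fold also changed with the background subtraction of the scanner software. With the signal as scanned, 170 genes were more than 4-fold higher and 233 lower, and with the authors' processed values 156 and 185, against 327 and 426 here. For 55 genes past 2-fold the vehicle array stood more than 2-fold outside all 6 arrays other than itself and 60 nM, and 46 of these were lower at 60 nM. The olfactory receptor gene OR4P4 and the keratin gene KRT40 are examples, with 7.69 and 6.84 on the vehicle array, 3.05 and 2.95 at 60 nM and 2.99 and 2.91 on the EEDS vehicle array. Another 9 of the 55 were higher at 60 nM, CXCL8 and TXNIP among them. These read 5.18 and 3.31 on the vehicle array and 6.20 and 5.10 on the EEDS vehicle array. For 132 genes the 60 nM array stood outside the 6 others in this way, OR5J2 among them with 7.10 at 60 nM and 3.06 with vehicle. Such values rest on 1 array, and their part in the list counts was not tested.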

How the data were processed

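Total RNA of A549 cells was hybridised to one-colour Agilent whole human genome arrays, 1 array per condition. Per array, the deposited scanner output holds intensity values of every spot, namely a median signal, a local background and a background-subtracted processed signal, with calls of outlier and well-above-background spots. A second table deposited by the authors, with linear intensity values that they had processed, served as an alternative. It holds 8 arrays, and 0 columns of per-sample values were left unused. The files carry no slide or scan date, and the 2 series are the only batches known. The series and the agent cannot be told apart.

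Control spots and outlier spots were left out, processed signals were averaged per probe, and log2 values were taken after quantile normalization over the 8 arrays. This removed 22 probes with no usable spot on an array. Of 34127 probes, 24827 were matched through transcript accessions to 19056 gene symbols of GRCh38.p14, and 4797 genes had more than 1 probe. A gene was represented by its probe with the highest mean signal over the arrays among probes well above background on at least 1 of the 2 arrays, and a probe counted as such with at least 50% of its spots. Where only 1 array was well above background, the dimmer side was the higher of its own level and the array's lowest well-above-background level, and the ratio is given as at least N-fold. With 1 array a side no test was run, and counts use 2-fold and 4-fold limits. The vehicle and 60 nM arrays had median signals of 278 and 266 over local backgrounds of 33 and 32.5, 57.3% and 58.1% of probes well above background, and 0 saturated spots. The number of arrays limits the precision.

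The 46 gene lists, the members and the alternatives were chosen with earlier results of these data known. Genes named are the 10 largest gains and losses above background on both arrays, the 5 largest bounds each way, per list up to 4 members each way past 2-fold with fixed anchor genes, and the genes at the background limit. Further list members were named after their values were seen. Shared members count under each list, and the values of some genes are not reported here. The steps were tested on simulated data, and Python 3.11.15, numpy 2.4.6, pandas 2.3.3, matplotlib 3.10.9, R 4.3.3 and limma 3.58.1 (normexp with an offset of 50) were used. Alternatives were other normalizations, background corrections, filters, probe rules and the EEDS vehicle as the control.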

Additional observations from a re-analysis of the deposited data

Results flagged for a closer look

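For 3 genes the ratio of 60 nM helveticoside over vehicle and that of 20 µg/mL EEDS over the EEDS vehicle were past 2-fold in opposite directions, with the gene well above background on all 4 arrays. CFP, which encodes properdin, a positive regulator of complement, had a log2 ratio of -1.20 for helveticoside, with 7.15 on its vehicle array and 5.95 at 60 nM, and read 5.30 and 6.96 in the EEDS series. The noncoding KCNQ1OT1 had -1.01, with 7.61 and 6.61, against 6.76 and 7.81. The zinc finger gene ZNF230 had -1.04, with 7.22 and 6.19, against a log2 ratio of 1.02 for EEDS. On the helveticoside vehicle array all 3 lay above the EEDS vehicle array. The ratio of each at 60 nM was within 2-fold under at least 1 alternative, and with the EEDS vehicle as the control it was 0.65 for CFP and 0.19 for ZNF230. With 1 array per condition the difference was not tested.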

How the results depend on the processing

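Of 253 named genes past 2-fold, 185 stayed past 2-fold the same way under each of the 11 alternatives that gave a value, and of all genes more than 4-fold higher or lower, 316 of 327 and 406 of 426 did. At the 2-fold limit, which the list counts use, fewer did, namely 792 of 1518 higher and 972 of 1866 lower genes. Most alternatives kept the 4 counts of genes within 1.5 times. Exceptions were the signal as scanned, with 170 genes more than 4-fold higher and 233 lower, normexp correction, with 180 and 244, and the authors' processed values, with 992 and 1198 genes more than 2-fold and 156 and 185 more than 4-fold higher and lower. These alternatives differ in the background correction, and the authors' values also in being normalized within each series, and the cause was not tested. Of 279 named genes, 104 moved with the authors' values, 79 as scanned and 74 with normexp, so a fold or bound holds for its background correction. Of 92 list counts, 27 moved by more than 1.5 times with the EEDS vehicle as the control, 26 with the authors' values and 17 each with 75th percentile scaling, normexp and the signal as scanned. The median of all genes moved by less than 0.1 on the log2 scale under each scaling. H2AC16 reversed, with a log2 ratio of 0.19, when the EEDS vehicle served as the control. With that control, 1109 of the 1518 genes more than 2-fold higher and 1644 of the 1866 lower were past 2-fold the same way.

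The median of 10 of the 46 lists changed sign under some alternative: ion transport, ER chaperone, interferon and HLA class II, glycolysis, epithelial and mesenchymal state, Notch and Wnt, SR protein and CLK, complex I, proteasome and ZNF, all with medians between -0.09 and 0.17 in the values reported. No paired analysis was possible because each condition has 1 array and the replicate numbers are all 1. For genes near background only a bound on the ratio can be had.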

Other observations

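Among 8753 pairs of neighbouring genes that were both described, 152 had both genes more than 2-fold higher, 216 both more than 2-fold lower and 256 had 1 of each. A right-hand neighbour was more than 2-fold higher beside 14.8% of higher genes, against 11.5% of right-hand neighbours in all, and more than 2-fold lower beside 17.3% of lower genes, against 14.3% in all. Neighbours past 4-fold the same way included HEXIM1 and HEXIM2, inhibitors of the elongation kinase P-TEFb, at -2.16 and -3.57, the TRAIL receptor genes TNFRSF10D and TNFRSF10A at 2.48 and 2.91, and CLDN2 with MORC4 at -5.14 and -3.37. Neighbours of opposite sign included THRA and NR1D1, which overlap on opposite strands, at -2.53 and 3.02, GATA6 at 2.74 beside MIB1 at -2.45, and NAB2, a repressor of EGR1, at 2.01 beside STAT6 at -2.55. These pairs were chosen after their values were seen.

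By annotated type, 43 of 267 long noncoding RNA genes (16.1%) were more than 2-fold lower and 26 (9.74%) higher, and 1789 of 12656 protein-coding genes (14.1%) lower and 1475 (11.7%) higher.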
